A study of Mus musculus with 6 samples.

Results

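Most of the genes described here make ribosomes. They encode subunits and factors of RNA polymerase I, the snoRNP cores, the assembly factors of both ribosomal subunits and 2 nucleolar scaffold proteins. All were chosen by gene name, from name families such as Nop, Utp, Rrp, Nol, Noc and Polr1 and from single names such as Ubtf, Ncl and Npm1. The names also took in Rrp8 and Nol4, which were placed in none of these roles and are counted with the set. The choice was made with earlier results of these data known, although the name rule itself uses no measured value. In all, 74 of the 38483 genes in the files carry a matching name. Of these, 32 lie on the minus strand and are described below. The other 42 lie on the plus strand, where all 19214 genes are listed with a count of 0 in every culture, so nothing is said of them. Those listed at 0 include Polr1a, Polr1b, Rrn3, Fbl, Dkc1, Nop56, Pes1 and Nol8.

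RNA was sequenced from mouse embryonic fibroblasts (MEFs), primary cells grown from minced mid-gestation embryos whose limbs, brain and internal organs had been removed. The samples were 3 cultures of Nipbl+/- MEFs, which carry a heterozygous knockout of Nipbl, and 3 cultures of wild-type (WT) littermates, all of the CD1 strain and at passage 3. NIPBL loads the cohesin ring onto chromatin, and loss of 1 copy of the human gene causes Cornelia de Lange syndrome. By the methods the embryos came from 1 pregnant mouse, so both genotypes share a litter and the p-values measure the spread between cultures of that litter, while the extract protocol in the labels names ES cells in place of MEFs.

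Ribosome production starts in the nucleolus, where RNA polymerase I, brought to the rDNA by UBTF and the selectivity factor SL1, copies a single precursor of the 18S, 5.8S and 28S rRNAs. The small-subunit processome folds and cuts the 18S side of this precursor, other factors mature the 28S side, and box C/D and box H/ACA snoRNPs guide its methylation and pseudouridylation. The set is known to be highly expressed in growing cells, and MYC is a well known activator of many of its genes.

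In these MEFs none of the 32 ribosome biogenesis genes passed the test between genotypes, in either direction. Adjusted p-values are Benjamini-Hochberg values of edgeR's quasi-likelihood test over all 9061 tested genes, with a threshold of 0.05, and CPM are counts scaled to a common library size after TMM normalization. The targeted gene itself was lower: Nipbl had 128, 145 and 135 CPM in the WT cultures and 101, 101 and 100.3 CPM in the Nipbl+/- cultures, with no overlap. Its log2 fold change was -0.43 (SE 0.06, edgeR adjusted p = 0.0213). Among all tested genes 94 rose (1.04%) and 83 fell (0.916%). With library size as the only normalization the same split was 142 and 70.

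Total counts lay between 20307454 and 25990783 per culture, and the 32 genes together held 0.417% to 0.468% of them. All 32 genes passed the filter on low counts, with between 42 and 48046 reads per gene and culture. Over all genes the spread between replicate cultures exceeded counting noise. Fibroblast markers summed to between 37547 and 46526 CPM over the 12 tested of 29 listed, while macrophage markers were present at 84.3 to 109.6 CPM in WT and 124 to 245 CPM in Nipbl+/- cultures. In bulk RNA, fewer cells of a type and less RNA per cell cannot be told apart.

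As levels per gene length (RPKM, the reads scaled by gene length and library size, as deposited), the set spanned a wide range. Npm1, which encodes the nucleolar chaperone nucleophosmin, stood far above the rest with 569.6, 572 and 622 RPKM in WT and 567, 672 and 659 RPKM in Nipbl+/- cultures. Rrp1, a 60S processing factor, followed with a mean of 77.5 RPKM over the 6 cultures, and Gnl3, which encodes the nucleolar GTPase nucleostemin, had 72.6 RPKM. The RPKM ranges of Rrp1 (71.4 to 82.2) and Gnl3 (69.2 to 77.2) overlapped, so their order does not hold beyond the spread. Nhp2l1, which encodes the snoRNA-binding protein SNU13, and Ncl, which encodes nucleolin, had means of 52.5 and 50.2 RPKM, again with overlapping ranges.

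At the low end Taf1c, a subunit of SL1, had a mean of 3.46 RPKM and Gar1, a protein of the H/ACA snoRNP, 4.70 RPKM. Nol4, a gene named for a nucleolar protein, was barely expressed, at 0.335 to 0.577 RPKM. The other 24 genes had means between 9.75 RPKM (Rrp15) and 33.5 RPKM (Gnl3l), and among them Ubtf had 17.1 and Polr1c 23.7 RPKM.

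**Figure D1:**
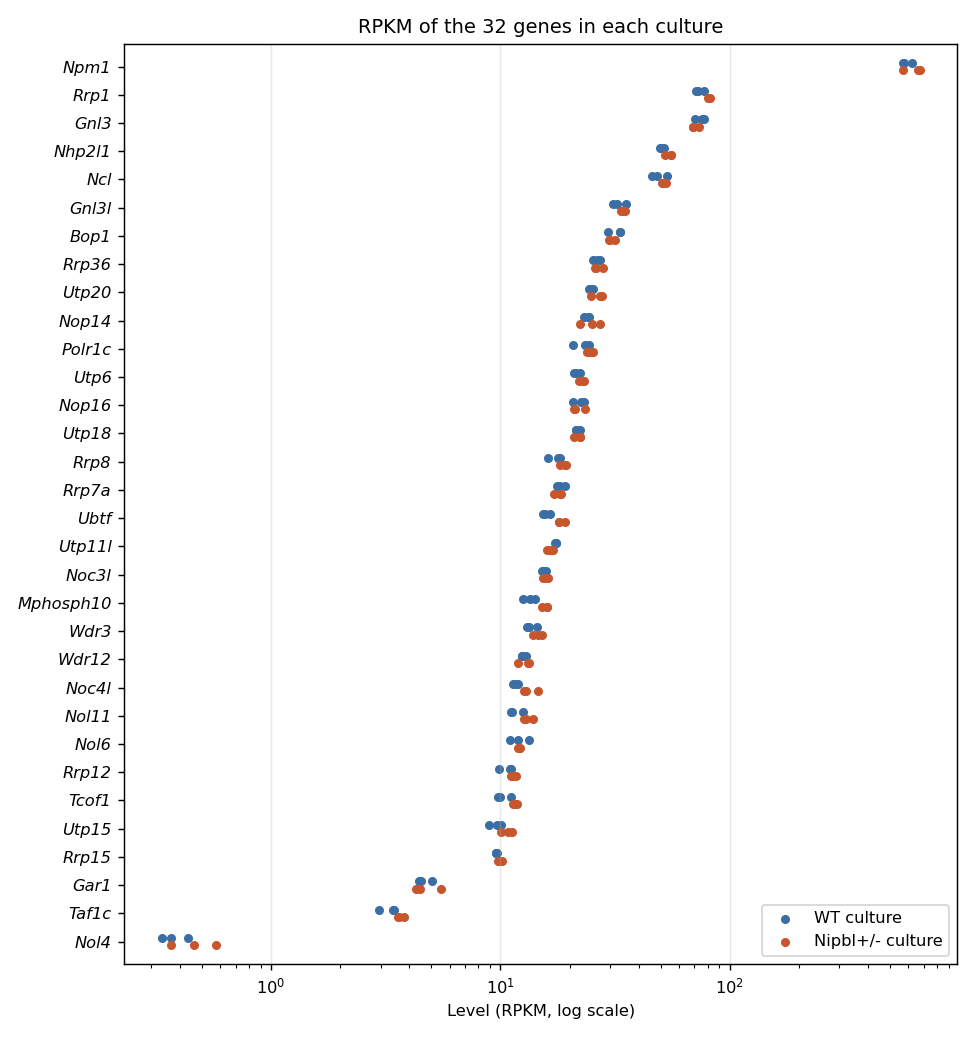
RPKM of each of the 32 genes (rows, ordered by mean) on a log axis, with 1 point per culture (blue, WT; orange, Nipbl+/-). Npm1 lies near 610 RPKM and Nol4 near 0.423 RPKM, and for most genes the points of both genotypes intermingle.

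The 32 genes share no location: they lie on 15 chromosomes, with at most 5 on chromosome 11, and all are protein-coding in GENCODE M21. Their promoters were compared for short motifs. The window was the 300 bases around the RefSeq start nearest the gene start in the files (250 before it and 50 after it, GRCm38.p6). Such a promoter was matched for 22 of the 32 genes and for 5282 of all tested genes, and the unmatched genes were not searched. The E-box CACGTG, a palindrome that MYC-MAX dimers and other bHLH factors bind, was present in 4 of the 22 promoters (18.2%; Nol11, Rrp7a, Utp18 and Utp20) and in 10.1% of the promoters of all tested genes. The letters CTTCCG, the core of ETS family sites, read on both strands, were present in 11 of 22 promoters (50%) against 30.3%. ATTGG, the CCAAT box on the reverse strand, was present in 8 of 22 (36.4%) against 38.9%, and TATAAA in 1 of 22 against 7.4%, both read on either strand. These are descriptions of letters in a window, with 22 promoters, and show no bound factor.

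Of the promoters, 4 are printed. Nol11 and Utp18 are shown because they hold an E-box just before the start, and Mphosph10 and Rrp1 as examples of genes higher in all Nipbl+/- cultures. Noc4l was also higher in all of them, and its matched promoter, with neither CACGTG nor CTTCCG in the same stretch, is not printed. The printed stretches of Mphosph10 and Rrp1 hold neither motif, but Mphosph10 is among the 11 promoters with CTTCCG in the 300-base window, outside the stretch shown. Each is the 150 bases that end just before the gene start, 5′ to 3′ on the minus strand of GRCm38.p6 from RefSeq, with CACGTG and CTTCCG (or its reverse complement CGGAAG) in capitals. They lie at chr11:107189382-107189531 (Nol11), chr11:93885767-93885916 (Utp18), chr7:64392269-64392418 (Mphosph10) and chr10:78413044-78413193 (Rrp1).
Nol11: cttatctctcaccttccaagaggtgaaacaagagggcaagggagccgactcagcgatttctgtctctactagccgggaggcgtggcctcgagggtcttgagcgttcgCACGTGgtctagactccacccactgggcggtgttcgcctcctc
Utp18: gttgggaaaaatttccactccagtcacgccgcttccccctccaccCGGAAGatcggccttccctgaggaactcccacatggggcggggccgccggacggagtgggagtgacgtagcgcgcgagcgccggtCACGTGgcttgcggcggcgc
Mphosph10: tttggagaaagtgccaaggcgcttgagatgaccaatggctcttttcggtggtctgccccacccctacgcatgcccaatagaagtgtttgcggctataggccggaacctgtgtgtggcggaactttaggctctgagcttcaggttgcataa
Rrp1: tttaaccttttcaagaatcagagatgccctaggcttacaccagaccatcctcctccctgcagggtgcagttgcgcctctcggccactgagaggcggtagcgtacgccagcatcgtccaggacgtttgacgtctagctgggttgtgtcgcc
The E-box of Nol11 and that of Utp18 both lie in the second part of the stretch, nearer to the start. Both genes are also among the 11 with CTTCCG in the 300-base window, which for Utp18 lies in the stretch shown and for Nol11 outside it. In expression the 4 genes with an E-box in the 300-base window differed. Nol11 was higher and Rrp7a lower in all Nipbl+/- cultures, while Utp18 and Utp20 overlapped between genotypes.

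RNA polymerase I initiation held the gene with the smallest p of the set. Ubtf (chr11:102304560-102319742, mm10) encodes UBTF, the HMG-box protein that coats active rDNA. It had 109, 107 and 109.8 CPM in WT and 121, 121 and 126 CPM in Nipbl+/- cultures, so every Nipbl+/- culture lay above every WT culture. The difference was 13.1% (log2 fold change 0.18, SE 0.05), which did not pass the threshold (edgeR adjusted p = 0.105).

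Tcof1, which encodes treacle, the rDNA-bound scaffold that is mutated in Treacher Collins syndrome, had 55.9, 54.8 and 60.1 CPM in WT and 61.3, 64.0 and 61.1 CPM in Nipbl+/- cultures. Its groups did not overlap either, but the closest cultures were 1.72% of the WT mean apart, and the log2 fold change was 0.13 (SE 0.05, edgeR adjusted p = 0.280). Taf1c had a like log2 fold change of 0.13 with a wider error (SE 0.10), and its WT and Nipbl+/- cultures overlapped. Exons of Dnaaf1, on the plus strand, overlap Taf1c, and the kit is not stated to mark strand, so reads of both genes cannot be told apart. The minus-strand gene Rps13-ps4 also overlaps the span of Taf1c.

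The single measured subunit of the polymerase was Polr1c, which encodes a subunit shared by RNA polymerases I and III. It had 59.4, 50.1 and 54.3 CPM in WT and 56.1, 59.0 and 56.01 CPM in Nipbl+/- cultures. The highest value and the lowest value were both WT, and the log2 fold change of 0.06 (SE 0.07, edgeR adjusted p = 0.689) was within this spread. The 4 genes of transcription by RNA polymerase I had positive log2 fold changes, from 0.06 to 0.18, and none passed the test. Without the second WT culture, the lowest of the 6 for both genes, the value was 0.0046 for Polr1c and 0.07 for Taf1c, and without the first WT culture Polr1c was at 0.13.

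**Figure D2:**
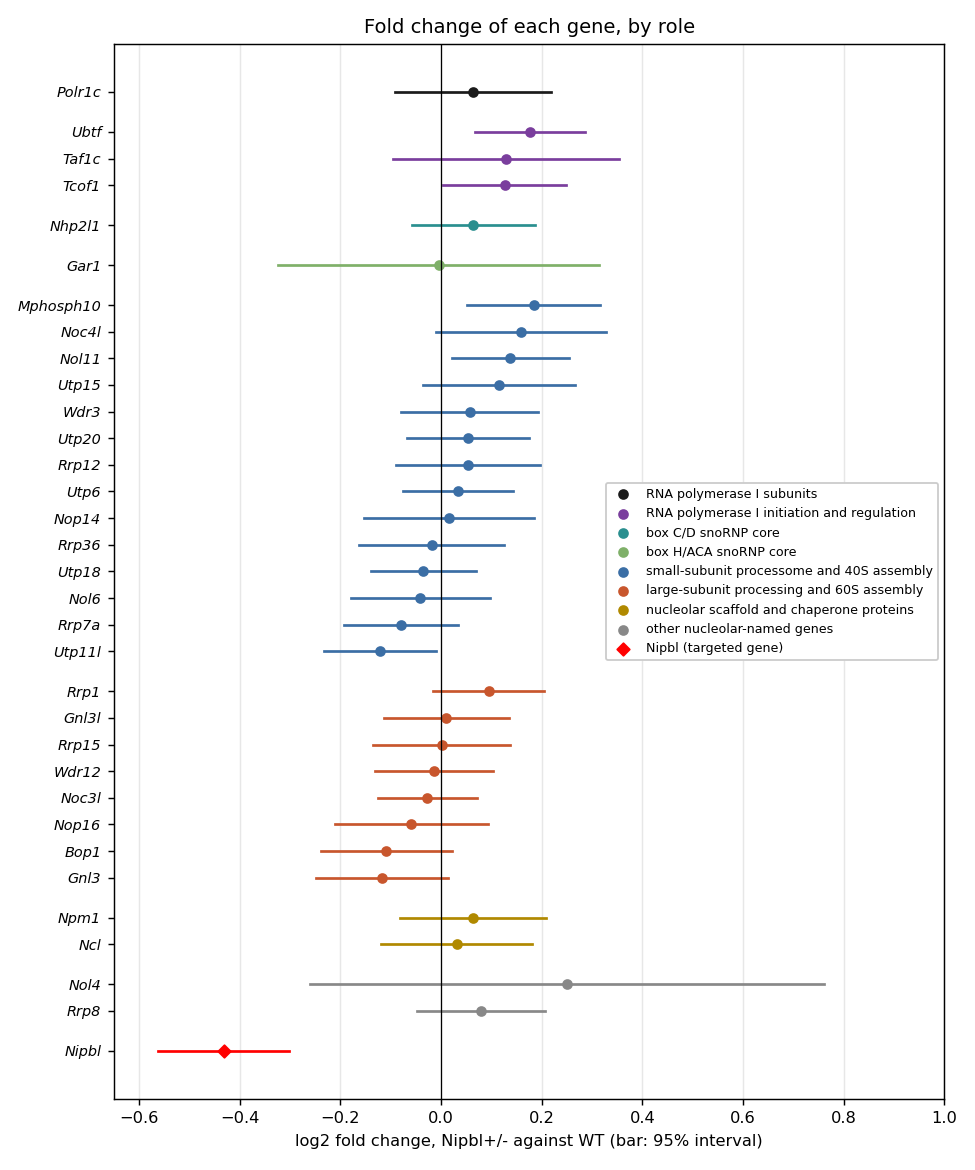
Log2 fold change (horizontal axis, Nipbl+/- against WT) of each gene with its unadjusted 95% interval as a bar, grouped and coloured by role, with Nipbl as a red diamond at the bottom. The intervals of Ubtf, Tcof1, Mphosph10 and Nol11 lie above 0, that of Utp11l lies below 0, and the remaining 27 of the 32 cross 0.

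The 14 genes of the small-subunit processome and 40S assembly had a median log2 fold change of 0.04, and none passed the test. Mphosph10 encodes a U3 snoRNP protein that acts with IMP3 and IMP4. It had 48.8, 52.5 and 53.0 CPM in WT and 60.2, 59.7 and 55.4 CPM in Nipbl+/- cultures, without overlap. Its log2 fold change of 0.18 (SE 0.06, a 13.6% difference) was the largest of this group with all 6 cultures, with an edgeR adjusted p of 0.152.

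Nol11, a factor that links pre-rRNA transcription to its processing, had 63.5, 63.8 and 68.4 CPM in WT and 70.0, 70.8 and 74.5 CPM in Nipbl+/- cultures. The groups did not overlap, and the log2 fold change was 0.14 (SE 0.05, edgeR adjusted p = 0.225). Exons of the plus-strand gene Gm11715 overlap Nol11, and the minus-strand gene Rps12-ps26 overlaps its span. Noc4l, the partner of NOP14 in the 40S precursor, had 31.9, 30.1 and 29.97 CPM in WT and 32.8, 37.3 and 32.6 CPM in Nipbl+/- cultures. Here 1 Nipbl+/- culture stood above the rest and the other two lay just above the highest WT culture (log2 fold change 0.16, SE 0.07, edgeR adjusted p = 0.321). Without that culture the value was 0.09.

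In the other direction, Utp11l, which encodes a U3 snoRNA-associated processome protein, had 87.2, 87.3 and 83.7 CPM in WT and 77.2, 82.2 and 77.7 CPM in Nipbl+/- cultures. All Nipbl+/- cultures lay below all WT cultures, and the log2 fold change was -0.12 (SE 0.05, edgeR adjusted p = 0.259). Rrp7a, a 40S assembly factor whose exons overlap those of the plus-strand gene Serhl, was likewise lower without overlap. It had 105, 102 and 106 CPM in WT and 101, 94.9 and 99.5 CPM in Nipbl+/- cultures (log2 fold change -0.08, SE 0.05, edgeR adjusted p = 0.462).

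The remaining 9 genes of this group overlapped between genotypes. Rrp36, an early 18S processing factor, had the highest mean level of the group at 26.5 RPKM (25.4 to 28.03), though Utp20 (24.3 to 27.6) and Nop14 (22.3 to 27.2) overlapped it. In CPM it had between 32.4 and 33.4 CPM in WT and between 31.0 and 34.4 CPM in Nipbl+/- cultures (log2 fold change -0.02, SE 0.06). Utp20, Utp6, Utp15, Utp18, Wdr3, Nol6, Nop14 and Rrp12 had log2 fold changes between -0.04 (Nol6) and 0.12 (Utp15). Of these, Wdr3 (with Gdap2 and Spag17) and Nop14 (with Gm15522) overlap exons of plus-strand genes. Within the processome, therefore, the members went both ways, 9 with a positive and 5 with a negative value (11 and 3 with library size alone, where Rrp36 and Utp18 turned positive). The median over all tested genes was -0.01 with TMM and 0.03 with library size alone.

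On the 60S side 3 of 8 genes had a positive value (37.5%, against 48.4% of all tested genes) and 5 a negative one, with a median of -0.02. With library size alone Noc3l and Wdr12 turned positive and the split was 5 positive to 3 negative. The median over all tested genes was then 0.03. Rrp1 (chr10:78400362-78413043, mm10), the homologue of a yeast factor in 27S pre-rRNA processing, had 156, 152 and 159 CPM in WT and 170.2, 165 and 163 CPM in Nipbl+/- cultures. The cultures of the 2 genotypes did not overlap, and the closest were 2.81% of the WT mean apart. The log2 fold change of 0.09 (SE 0.05, edgeR adjusted p = 0.366) was not past the threshold.

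Bop1 (chr15:76452996-76477269, mm10) encodes a subunit of the PeBoW complex, which matures the 28S and 5.8S rRNAs together with PES1 and WDR12. It had 88.1, 77.6 and 83.8 CPM in WT and 77.0, 75.7 and 78.7 CPM in Nipbl+/- cultures. One WT culture lay among the Nipbl+/- values, and the log2 fold change was -0.11 (SE 0.06, edgeR adjusted p = 0.377). Exons of Mroh1 on the plus strand overlap Bop1. The PeBoW partner Wdr12 had a log2 fold change of -0.01 (SE 0.05), and it too overlaps plus-strand exons, of Carf.

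Gnl3 had 142, 154 and 146 CPM in WT and 135, 142 and 131 CPM in Nipbl+/- cultures, so that the highest Nipbl+/- culture reached just past the lowest WT culture. Its log2 fold change of -0.12 (SE 0.06, edgeR adjusted p = 0.342) was the farthest from 0 among the 60S genes. Noc3l, a factor of the early 60S precursor, had 65.7, 64.4 and 64.4 CPM in WT and 64.3, 62.5 and 64.1 CPM in Nipbl+/- cultures. It counted as lower without overlap, although its log2 fold change of -0.03 was smaller than its SE (0.04, edgeR adjusted p = 0.798) and turned to 0.01 with library size alone. Gnl3l, Nop16 and Rrp15 had log2 fold changes between -0.06 and 0.01 and overlapped.

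The snoRNP cores were represented by 1 gene each. Nhp2l1 of the box C/D particle had 114, 117 and 108 CPM in WT and 115, 122 and 118 CPM in Nipbl+/- cultures (log2 fold change 0.06, SE 0.05, edgeR adjusted p = 0.595). Gar1 of the box H/ACA particle had 8.21, 9.12 and 7.75 CPM in WT and 9.74, 7.87 and 7.40 CPM in Nipbl+/- cultures, with the highest and the lowest value both in the Nipbl+/- group. Its log2 fold change of -0.0047 had the second widest error of the set (SE 0.14), after Nol4.

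Npm1 had 1620.4, 1620.4 and 1693 CPM in WT and 1557, 1836 and 1762 CPM in Nipbl+/- cultures, so that the 3 Nipbl+/- cultures spanned the WT values on both sides (log2 fold change 0.06, SE 0.06, edgeR adjusted p = 0.664). At a mean of 610.1 RPKM it was the only gene of the set with near-identical copies among annotated transcripts, which were 3 processed pseudogenes, of which 1 is listed at 0 on the plus strand and the other two are not listed. Ncl had 402, 467 and 405 CPM in WT and 431, 447 and 423 CPM in Nipbl+/- cultures (log2 fold change 0.03, SE 0.07, edgeR adjusted p = 0.856). The snoRNAs within Ncl and Gnl3 (6 in all) were sparsely counted. Of these Snord69 and Snord19 were tested and not called.

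Rrp8 encodes the methyltransferase nucleomethylin. Its log2 fold change was 0.08 (SE 0.06), and its WT cultures (52.9 to 59.3 CPM) overlapped the Nipbl+/- cultures (57.8 to 59.96 CPM). Its exons overlap those of Ilk on the plus strand. Nol4 had a log2 fold change of 0.25 on 42 to 69 reads per culture, with an error of like size (SE 0.22, edgeR adjusted p = 0.622), and its cultures overlapped. The value was 0.09 without the third Nipbl+/- culture, 0.15 without the third WT culture and 0.40 without the second Nipbl+/- culture.

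**Figure D3:**
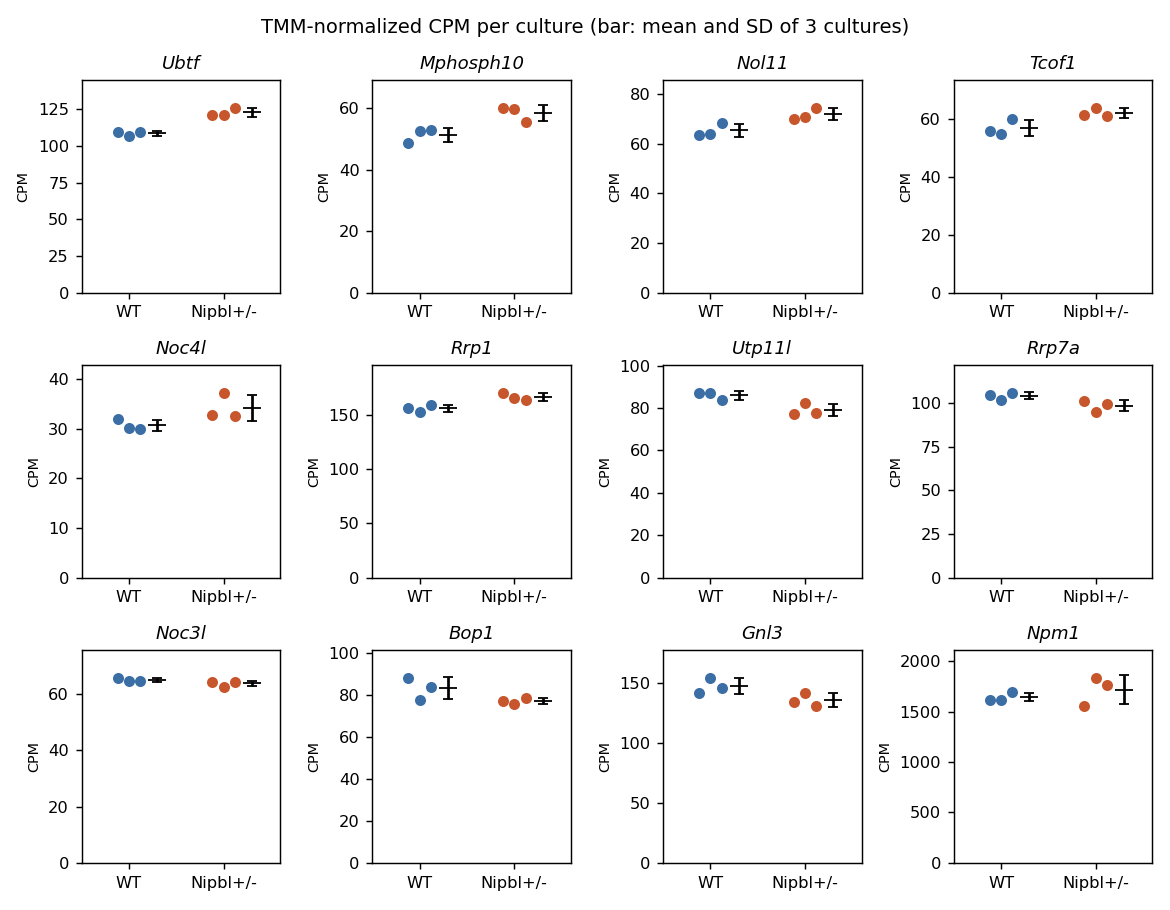
TMM-normalized CPM (vertical axes from 0) of 12 of the genes in each WT (blue) and Nipbl+/- (orange) culture, with the mean and SD of 3 cultures in black. Ubtf, Mphosph10, Nol11, Tcof1, Noc4l and Rrp1 are higher and Utp11l, Rrp7a and Noc3l lower in all Nipbl+/- cultures, while Bop1, Gnl3 and Npm1 overlap.

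Over the whole set, 6 of 32 genes (18.8%) were higher in all 3 Nipbl+/- cultures than in all 3 WT cultures, against 12% of all tested genes, and 3 (9.38%) were lower, against 10.8%. With library size alone 8 were higher (25%, against 15.7% of all tested genes) and 1 was lower (3.12%, against 7.34%). With upper-quartile normalization 6 were higher (18.8%, against 10.8%) and 5 were lower (15.6%, against 12.2%). At an unadjusted p under 0.05 in edgeR, 4 genes were higher (Ubtf, Mphosph10, Nol11 and Tcof1; 12.5%, against 8.98% of all tested genes) and 1 was lower (Utp11l; 3.12%, against 7.95%). These shares are near the background, on 32 genes. The count of 0 past the adjusted threshold was also 0 with edgeR's exact test (4.77% of all tested genes called in either direction) and with DESeq2 (4.56%).

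The median log2 fold change was 0.04, with quartiles of -0.02 and 0.10, against -0.01 over all tested genes, and 21 of 32 values (65.6%) were positive, against 48.4% of all tested genes. With library size alone 26 values were positive, and with upper-quartile normalization 19. The median over all tested genes moved as well, to 0.03 and -0.02. The median of the 32 genes lay 0.05 above it in both settings. In size the differences were small: the median absolute log2 fold change was 0.06, against 0.11 over all tested genes, with a median SE of 0.06 against 0.10. The unadjusted 95% intervals bound the change: for 31 of the 32 genes the interval lay above a drop of 20% (Gar1 reached -20.1%), for 29 it lay below a rise of 25%, and for 28 (87.5%, against 43.6% of all tested genes) both held. The summed level of the 32 genes lay between 4298 and 4384 CPM in WT and between 4277 and 4647 CPM in Nipbl+/- cultures. Its lowest culture was thus a Nipbl+/- culture. Npm1 made up much of this sum. The sum without Npm1 was 2678 to 2737 CPM in WT and 2720 to 2811 CPM in Nipbl+/- cultures, with a WT culture lowest.

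The second Nipbl+/- culture was the highest of the 6 for 14 of the 32 genes, while it was the highest for 15.6% of all tested genes. It was also the most deeply sequenced library. Without it the median log2 fold change of the 32 genes was 0.02. Then 7 of them (21.9%) were higher in every remaining Nipbl+/- culture than in every WT culture, against 16% of all tested genes. Another 7 (21.9%) were lower, against 15.1%. With 1 culture left out there are 6 pairs of cultures in place of 9, so fewer comparisons have to point one way and these counts are not comparable with those over 9 pairs. Without the first Nipbl+/- culture 13 of the 32 genes (40.6%) were higher in all 6 pairs, against 16.5% of all tested genes, and 3 (9.38%) were lower, against 16.3%. Without the second WT culture 11 (34.4%) were higher, against 17.7%, and 5 (15.6%) were lower, against 17.9%. With each of the 6 cultures left out in turn, none of the 32 genes passed the test.

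Other ribosome biogenesis genes gave the same count. Of 121 on a list of helicases, GTPases, exosome subunits and other assembly factors, 64 lie on the minus strand and all were tested. None passed the threshold, and their median log2 fold change was 0.03. At an unadjusted p under 0.05 in edgeR 4 were higher (6.25%, against 8.98% of all tested genes). In the same test 1 was lower (1.56%, against 7.95%). That 1 was Rmrp, the RNA of RNase MRP, which cuts the rRNA precursor. It had 4706, 5323 and 4251 CPM in WT and 3708, 4004 and 4094 CPM in Nipbl+/- cultures, without overlap (log2 fold change -0.27, SE 0.08, edgeR adjusted p = 0.129). DESeq2 called it lower (adjusted p = 0.0318), the sole gene of this list called by any of the 3 tools, and it was named after its values were seen. As a count of reads on a short, abundant RNA it made up much of the list's summed level, which without it was 4057 to 4177 CPM in WT and 4080 to 4248 CPM in Nipbl+/- cultures.

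Genes of DNA replication and mitosis were read from the same libraries. Of 36 proliferation markers 21 were tested, and 9 rose (against 1.04% of all tested genes), while none fell (against 0.916%). Their median log2 fold change was 0.38. Examples are Mki67 (log2 fold change 0.52, SE 0.09, edgeR adjusted p = 0.0311) and Top2a (0.45, SE 0.07, edgeR adjusted p = 0.0246). The summed level of the markers was 1407 to 1532 CPM in WT and 1834 to 2080 CPM in Nipbl+/- cultures, without overlap, so higher marker levels stood beside the ribosome biogenesis values given above. This count rests on few cultures: it was 0 without the first WT culture, without the first or without the second Nipbl+/- culture, 1 without the third WT culture, 2 without the third Nipbl+/- culture and 10 without the second WT culture, and 15 with DESeq2, while the median stayed between 0.30 and 0.42 over the left-out cultures. The difference between the 2 lists was not itself tested.

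Of the MYC network 11 genes were listed and 5 tested, none called. The other 6, Myc itself among them, are listed at 0 on the plus strand, so nothing is said of Myc. Max, the obligate partner of MYC, had a log2 fold change of -0.13 (SE 0.07, edgeR adjusted p = 0.379), and Mycn was at 0.561 CPM in the WT and 0.362 CPM in the Nipbl+/- cultures, on few reads. The only positive value of the 5 was that of Mxd3 (log2 fold change 0.48, SE 0.23, edgeR adjusted p = 0.324). Of 26 macrophage markers 9 are listed at 0 on the plus strand, and for the 16 tested ones the median was 1.03 on the log2 scale. Of them none was called by edgeR and 13 (81.2%) had an unadjusted p under 0.05, all higher, against 8.98% of all tested genes. Fibroblast markers had a median of -0.25, none called. At an unadjusted p under 0.05 in edgeR 1 was higher (8.33%, against 8.98% of all tested genes) and 5 were lower (41.7%, against 7.95%). The part of these cell type markers in the values of the ribosome biogenesis genes was not tested.

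**Figure D4:**
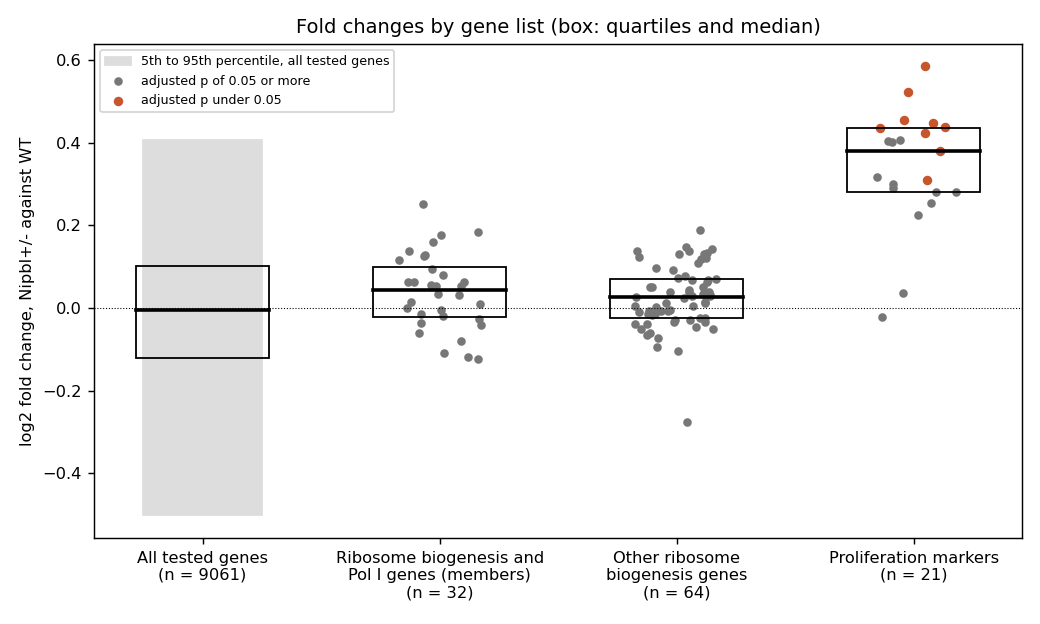
Log2 fold change (vertical axis, Nipbl+/- against WT) of all 9061 tested genes (grey band, 5th to 95th percentile), the 32 ribosome biogenesis and RNA polymerase I genes, 64 other ribosome biogenesis genes and 21 proliferation markers, with boxes for quartiles and median and points for genes (orange, adjusted p under 0.05). The medians are -0.01, 0.04, 0.03 and 0.38, and orange points appear only among the proliferation markers, 9 of 21.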

How the data were processed

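RNA of 3 WT and 3 Nipbl+/- MEF cultures was depleted of rRNA and sequenced with a TruSeq kit. The authors aligned reads to mm10 with TopHat 2.0.10 and deposited a raw read count and an RPKM per gene and culture; the counting tool is not given in the sources used here. RPKM was used only to compare levels between genes.

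In R 4.3.3, edgeR 4.0.16 took the counts (20307454 to 25990783 per culture), dropped low genes by filterByExpr at a minimum of 10, scaled by TMM and ran its quasi-likelihood test with genotype as the only term and with Benjamini-Hochberg adjustment over all 9061 tested genes. Standard errors and 95% intervals come from this fit. An exact permutation test of 3 against 3 cultures cannot go below 0.1. Alternatives were edgeR's exact test, DESeq2 1.42.0, other normalizations and filters, the replicate number as a block, and each culture left out. The code was tested on simulated data.

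The members and lists were chosen with earlier results of these data known. The rule for naming genes took Nipbl, members whose groups do not overlap, and Bop1 and Rrp1, which the study measured by PCR in other cells. In each role it took the member with the highest RPKM and that with the largest fold change. It also took genes of the other lists past the threshold, of which Mki67 and Top2a are given as examples. Beyond this rule all 32 members are named, and Rmrp, Max, Mxd3 and Mycn. Near-identical copies were sought with BLAST 2.17.0 (at least 95% identity over 30% of a transcript). Promoters are RefSeq's. Overlaps and gene types were taken from GENCODE M21.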

Additional observations from a re-analysis of the deposited data

How the results depend on the processing

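No ribosome biogenesis gene passed the adjusted threshold under any of the 15 alternatives, Ubtf and Mphosph10 kept an unadjusted p under 0.05 in each, the smallest adjusted p of the set lay between 0.0984 and 0.267, and the median log2 fold change lay between 0.02 and 0.08. The median of the set was 0.02 to 0.08 above that over all tested genes in the same settings. The log2 fold changes were 0.16 to 0.22 for Ubtf and 0.15 to 0.22 for Mphosph10. Of 495 values for Nipbl and the 32 genes, 469 kept their direction and side of the threshold, 23 changed sign, in 10 genes whose main value was at most 0.0415 from 0, and 3 (Nipbl at -0.47, -0.43 and -0.44 without WT replicate 1, Nipbl+/- replicate 1 or Nipbl+/- replicate 2) no longer passed.

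All genes called higher and lower numbered 219 and 213 with edgeR's exact test, 230 and 206 with DESeq2 and 173 and 152 with no filter on low counts; with library size alone 142 were higher. Replicate numbers did not pair the cultures (correlation of deviations -0.09, -0.05 and -0.21 for the same numbers), and with the replicate block 34 were higher and 52 lower, and no ribosome biogenesis gene was called. Leaving out 1 culture gave 1 to 130 higher and 2 to 138 lower genes; over the 6 remaining pairs of cultures, 6 to 13 ribosome biogenesis genes (18.8% to 40.6%) were then higher and 3 to 7 (9.38% to 21.9%) lower, against 15.4% to 17.7% and 15.1% to 17.9% of all tested genes. The count lower in all 9 pairs was 5 with upper-quartile normalization and 1 with library size alone, where the count higher was 8. DESeq2 called 1 of the other ribosome biogenesis genes lower. The cause of these shifts was not tested.

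Sign changes were -0.00031 (Gnl3l) and -0.0098 (Rrp15) with upper-quartile normalization, -0.0013 (Rrp15) without the 2 most counted genes, and 0.033 (Gar1), 0.011 (Noc3l), 0.019 (Rrp36), 0.0028 (Utp18) and 0.024 (Wdr12) with library size alone. Over the fits that leave out 1 culture, values crossed 0 for Ncl (-0.010 to 0.10), Gar1 (-0.13 to 0.072), Gnl3l (-0.020 to 0.044), Nol6 (-0.096 to 0.0095), Nop14 (-0.061 to 0.077), Rrp15 (-0.019 to 0.024), Wdr12 (-0.038 to 0.025) and Rrp36 (-0.060 to 0.014).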
